A study of Arabidopsis thaliana with 36 samples.

Results

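Transcripts of 6 Arabidopsis thaliana genes for respiratory chain subunits were followed in green leaf tissue of seedlings sprayed with antimycin A, hydrogen peroxide or water. SDH1-1, SDH2-1 and SDH2-2 encode subunits of succinate dehydrogenase (complex II), and AT4G37830, AT3G15640 and AT1G80230 encode subunits of cytochrome c oxidase (complex IV). The genes were taken by name from the probe sets to which the gene table assigns 1 gene. The names were chosen with earlier results of these data known. The rule found 7 probe sets for these 6 genes, of 13350 genes named by 13513 such probe sets. SDH2-1 has 2 of the 7. One of these lay between 2.23 and 2.35 (log2 intensity) on all 36 arrays, below the threshold taken for background (each array's lower quartile), and gives no level. SDH2-1 is therefore described by its other probe set, and all 6 genes had a probe set above background on every array.

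Succinate dehydrogenase oxidises succinate to fumarate in the tricarboxylic acid cycle and passes the electrons to ubiquinone. Its soluble part consists of a flavoprotein (SDH1), which binds succinate, and an iron-sulfur protein (SDH2), which carries the electrons toward the membrane. Cytochrome c oxidase ends the chain by passing electrons from cytochrome c to oxygen. Antimycin A blocks complex III, which lies between them, and is used to set off signalling from the mitochondrion to the nucleus. In Arabidopsis the nuclear genes of both complexes often come in small families, and SDH2-1 and SDH2-2 both encode the iron-sulfur subunit. AT3G15640 and AT1G80230 both encode the 5b-type subunit of cytochrome c oxidase, which binds zinc, and AT4G37830 encodes a 6a-type subunit. The gene table lists these 3 genes by locus code alone, so their subunit types are general knowledge of the Arabidopsis annotation.

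The 4 genotypes were rao2, a line from chemical (EMS) mutagenesis, anac017-1, a T-DNA knock-out of the NAC transcription factor gene ANAC017, anac017-2, described as a gain-of-function mutant of that gene, and wild type. All are of the Columbia ecotype, and the labels give the name Col:LUC for wild type alone. Seedlings were 14 days old and leaf tissue was collected 3 h after a spray with 50 µM antimycin A, 20 mM hydrogen peroxide or deionised water, which gives 12 groups of 3 arrays. The comparisons ask how the sprays change the transcripts and whether ANAC017 alters that change. Each mutant is 1 line. Whether replicates came from separate plants is not given, so the p-values speak only of the spread among these arrays, which may be technical.

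RNA had been hybridised to single-colour Affymetrix ATH1 arrays, 1 sample per array, with array medians from 77.5 to 83.3 intensity units and correlations between replicate arrays from 0.983 to 0.997 across probe sets. The precision is limited by the number of arrays. The antimycin A arrays of anac017-2 stood apart from the other antimycin A arrays. On the first principal component (56.3% of the variance, arbitrary units) they averaged 22.8 ± 8.4 (SD, n = 3), against group means of -108.7 to -95.8 for antimycin A in the other genotypes and 39.3 to 49.4 for water. Counts and tests that pool genotypes under antimycin A are therefore also given without anac017-2. ANAC017 has no probe set with a gene name here, so its transcript could not check the genotype labels. RCA (Rubisco activase), the single measured gene of 15 green leaf markers, was at 22630 to 27060 intensity units on every array. Of 10 root markers 3 were measured, and their summed intensity was 13.58 to 34.29, with EXPA7 not above background on any array. The shoot meristem gene CLV3, 1 of 4 such markers, was not above background on any array either, and neither of 2 vascular markers was measured. In whole leaves, fewer cells of a type and less RNA per cell cannot be told apart.

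The 6 genes differed in how far their levels moved over the 12 groups. A level below is a log2 intensity, and levels of different probe sets are not comparable with each other. AT3G15640 had the widest range of group means of the 6, 1.84, with its lowest mean in antimycin A-treated rao2 (8.10 ± 0.14, SD, n = 3 here and for each group mean) and its highest in water-treated wild type (9.95 ± 0.08). SDH1-1 spanned 0.80, SDH2-1 0.73, AT1G80230 0.65 and SDH2-2 0.64. AT4G37830 spanned 0.21 and stayed between 12.08 and 12.62 on all 36 arrays. The lowest group was anac017-1 under antimycin A for SDH1-1 (10.30 ± 0.08), SDH2-2 (9.02 ± 0.22) and AT1G80230 (8.71 ± 0.13). SDH2-1 ran otherwise: its lowest mean was in water-treated anac017-1 (9.69 ± 0.15) and its highest in hydrogen peroxide-treated wild type (10.42 ± 0.24).

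**Figure D1:**
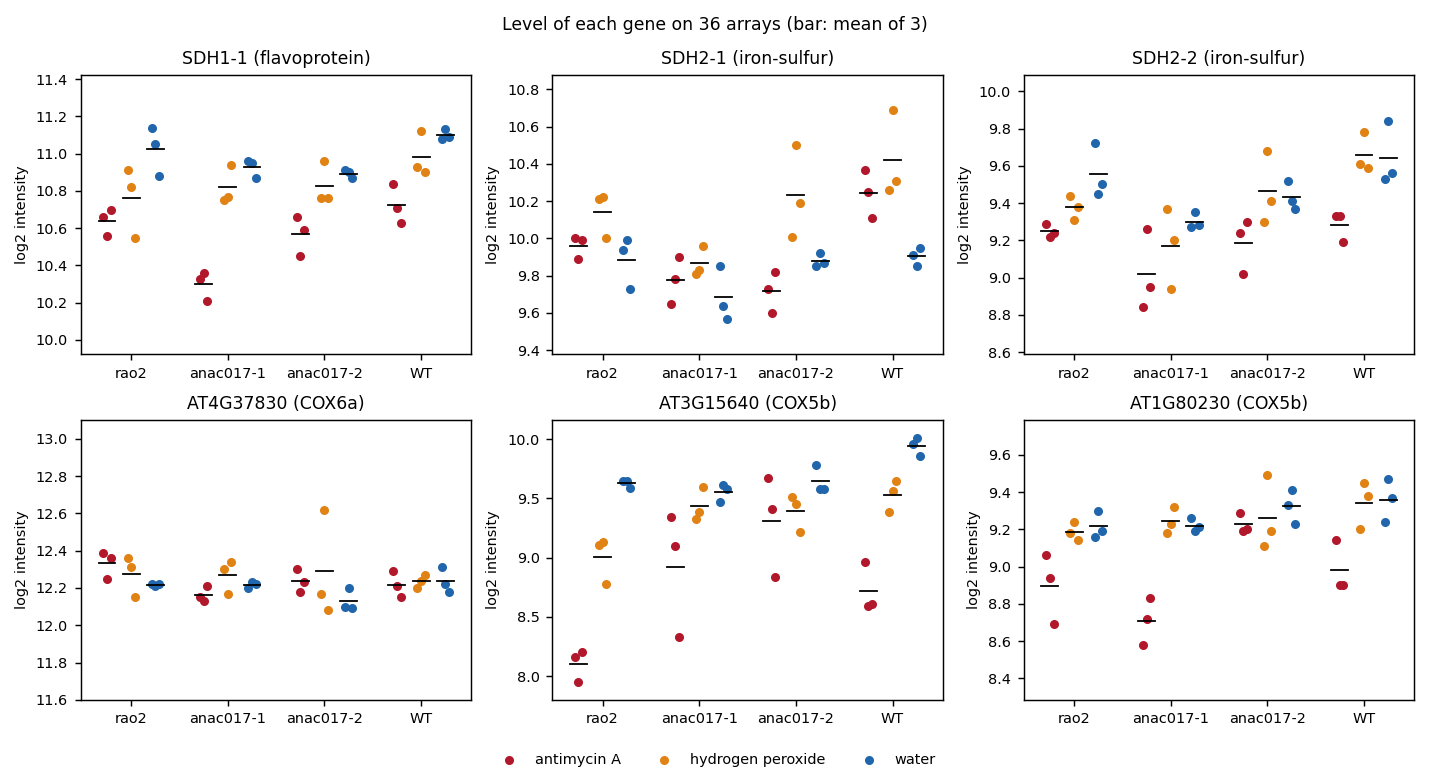
Log2 intensity (y axis) of each of the 6 genes on all 36 arrays, by genotype (x axis) and spray (colour); points are arrays and bars are means of 3. AT3G15640 runs from 7.95 to 10.01, while AT4G37830 stays between 12.08 and 12.62.

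When the 12 groups were put in order of level, most neighbours lay closer together than the larger of their 2 SDs. This held for 8 of 11 neighbouring pairs for AT3G15640 and for 10 of 11 for each of the other 5 genes. For AT3G15640 the steps wider than the spread were below the highest group, water-treated wild type (0.30), after water-treated rao2 (0.08), and above the lowest group, antimycin A-treated rao2 (0.62). For SDH1-1 the wide step (0.27) set antimycin A-treated anac017-1 below all other groups. This concerns neighbours only: groups further apart in the order can differ, as the comparisons below test.

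The flavoprotein gene SDH1-1 fell under antimycin A in every genotype. Its level was 10.64 ± 0.07 under antimycin A and 11.02 ± 0.13 in water for rao2, 10.30 ± 0.08 and 10.93 ± 0.05 for anac017-1, 10.57 ± 0.11 and 10.89 ± 0.02 for anac017-2, and 10.73 ± 0.11 and 11.10 ± 0.03 for wild type. In each genotype all 3 antimycin A arrays lay below all 3 water arrays. The log2 change was -0.38 ± 0.08 (SE of the fit, here and for all changes) in rao2, -0.63 ± 0.08 in anac017-1, -0.33 ± 0.08 in anac017-2 and -0.37 ± 0.08 in wild type. The limma adjusted p-values were 0.000488, 5.97e-07, 0.00879 and 0.000688 in that order. In wild type the change is a ratio of 0.775. In anac017-2 the call, an adjusted p under 0.05, was lost without replicate 2 of its antimycin A arrays (-0.27, adjusted p = 0.06).

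The iron-sulfur subunit genes moved in opposite directions in wild type, where SDH2-1 rose and SDH2-2 fell. SDH2-1 stood at 10.37, 10.25 and 10.11 on the antimycin A arrays of wild type, against 9.91, 9.85 and 9.95 on its water arrays. The groups did not overlap, and the change was 0.34 ± 0.11, or 1.27-fold (limma adjusted p = 0.0146). The call was lost without replicate 1 of antimycin A (0.28, adjusted p = 0.0775) or replicate 2 of water (0.31, adjusted p = 0.0516).

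SDH2-1 was not called in any mutant. In rao2 it read 10.00, 9.89 and 9.99 under antimycin A and 9.94, 9.99 and 9.73 in water, a change of 0.07 ± 0.11. In anac017-1 it read 9.65, 9.78 and 9.90 under antimycin A and 9.85, 9.64 and 9.57 in water, a change of 0.09 ± 0.11. Both pairs of groups overlapped. In anac017-2 the 3 antimycin A arrays (9.73, 9.60 and 9.82) lay below the 3 water arrays (9.85, 9.92 and 9.87), with a change of -0.16 ± 0.11 and an adjusted p of 0.429.

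SDH2-2 read 9.33, 9.33 and 9.19 on the antimycin A arrays of wild type, against 9.53, 9.84 and 9.56 on its water arrays, all of them higher. The fall was -0.36 ± 0.11 in wild type, -0.31 ± 0.11 in rao2 and -0.28 ± 0.11 in anac017-1 (limma adjusted p = 0.0098, 0.0269 and 0.0436). In anac017-2 the value was -0.25 ± 0.11, also with all antimycin A arrays below all water arrays, and was not called (adjusted p = 0.146). SDH2-2's calls were easily lost: in wild type without replicate 3 of antimycin A (-0.31) or 2 of water (-0.26), in rao2 without replicate 2 or 3 of antimycin A (-0.29 and -0.30) or 1 of water (-0.23). In anac017-1 the call was lost without any single array but replicate 2 of antimycin A, with values of -0.29 to -0.19, and under 10 of 16 alternatives in all.

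Among the cytochrome c oxidase genes, AT3G15640 fell most under antimycin A. In rao2 its 3 arrays read 8.16, 7.95 and 8.20 under antimycin A, against 9.65, 9.65 and 9.59 in water. In wild type they read 8.96, 8.59 and 8.61 under antimycin A, against 9.96, 10.01 and 9.86 in water. Neither pair of groups overlapped. The change was -1.53 ± 0.19 in rao2, to a ratio of 0.347, and -1.22 ± 0.19 in wild type, to a ratio of 0.429 (limma adjusted p = 1.55e-07 and 4.25e-06). Both calls held under all 16 alternatives run for each.

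The AT3G15640 arrays of the ANAC017 mutants were more scattered. In anac017-1 the gene read 9.34, 9.10 and 8.33 under antimycin A, against 9.47, 9.61 and 9.58 in water. The fall of -0.63 ± 0.19 (limma adjusted p = 0.0061) leaned on replicate 3 of antimycin A, without which it was -0.33 and not called (adjusted p = 0.112). In anac017-2 the gene read 9.67, 9.41 and 8.84 under antimycin A, against 9.78, 9.58 and 9.58 in water, with overlapping groups. Its change of -0.34 ± 0.19 was not called (adjusted p = 0.255), and its 95% interval was -0.72 to 0.04.

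AT1G80230, the other 5b-type gene, fell by less. Its level was 8.90 ± 0.19 under antimycin A and 9.22 ± 0.07 in water for rao2, 8.71 ± 0.13 and 9.22 ± 0.03 for anac017-1, 9.23 ± 0.06 and 9.33 ± 0.09 for anac017-2, and 8.98 ± 0.14 and 9.36 ± 0.11 for wild type. The antimycin A arrays lay below all water arrays in every genotype but anac017-2, where the groups overlapped. The change was -0.32 ± 0.10 in rao2, -0.51 ± 0.10 in anac017-1 and -0.38 ± 0.10 in wild type (limma adjusted p = 0.00697, 5.66e-05 and 0.00177), and -0.10 ± 0.10 in anac017-2, which was not called. In rao2 the call was lost without replicate 3 of antimycin A (-0.22, adjusted p = 0.0862).

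The 6a-type gene AT4G37830 was called in no genotype under antimycin A. Its changes were 0.12 ± 0.08 in rao2, -0.05 ± 0.08 in anac017-1, 0.11 ± 0.08 in anac017-2 and -0.02 ± 0.08 in wild type. The 95% interval in wild type ran from -0.19 to 0.15, so falls as large as those of AT3G15640 and AT1G80230 in wild type lie outside it.

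Counted together, antimycin A against water was called for 4 of 6 genes in rao2, 4 of 6 in anac017-1, 1 of 6 in anac017-2 and 5 of 6 in wild type. The shares of all probe sets called were 42.2%, 45.3%, 15.3% and 44% in the same order, and 25.8%, 27.7%, 8.39% and 26.7% were called as falling. All of the calls were falls except that of SDH2-1 in wild type, where 17.2% of all probe sets rose. The median change of the 6 genes was -0.32 in rao2, -0.40 in anac017-1, -0.21 in anac017-2 and -0.36 in wild type, beside medians of all probe sets of -0.02, -0.02, 0.00 and -0.02. Over all 4 genotypes 14 of 24 changes were called, beside 36.7% of all probe set changes, and 13 of these came from rao2, anac017-1 and wild type. Summed intensity of 3 measured guard cell lineage genes of 5 listed (FMA, MUTE and SPCH) moved with the spray as well. MUTE was not above background on 15 of 36 arrays and SPCH on 3. It was 88.34 to 102.0 under antimycin A and 117.3 to 136.7 in water in rao2, and 55.63 to 81.15 and 99.68 to 135.8 in anac017-1. It was 102.3 to 128.6 and 111.7 to 142.7 in anac017-2, and 59.12 to 78.21 and 121.8 to 154.1 in wild type. The sprays overlapped in anac017-2 alone. The log2 difference between 3′ and 5′ control probe sets of housekeeping transcripts was 3.48 ± 0.20 in antimycin A-treated anac017-1 and 3.10 ± 0.07 to 3.38 ± 0.17 in the other groups. The part of either measure in the results was not tested.

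**Figure D2:**
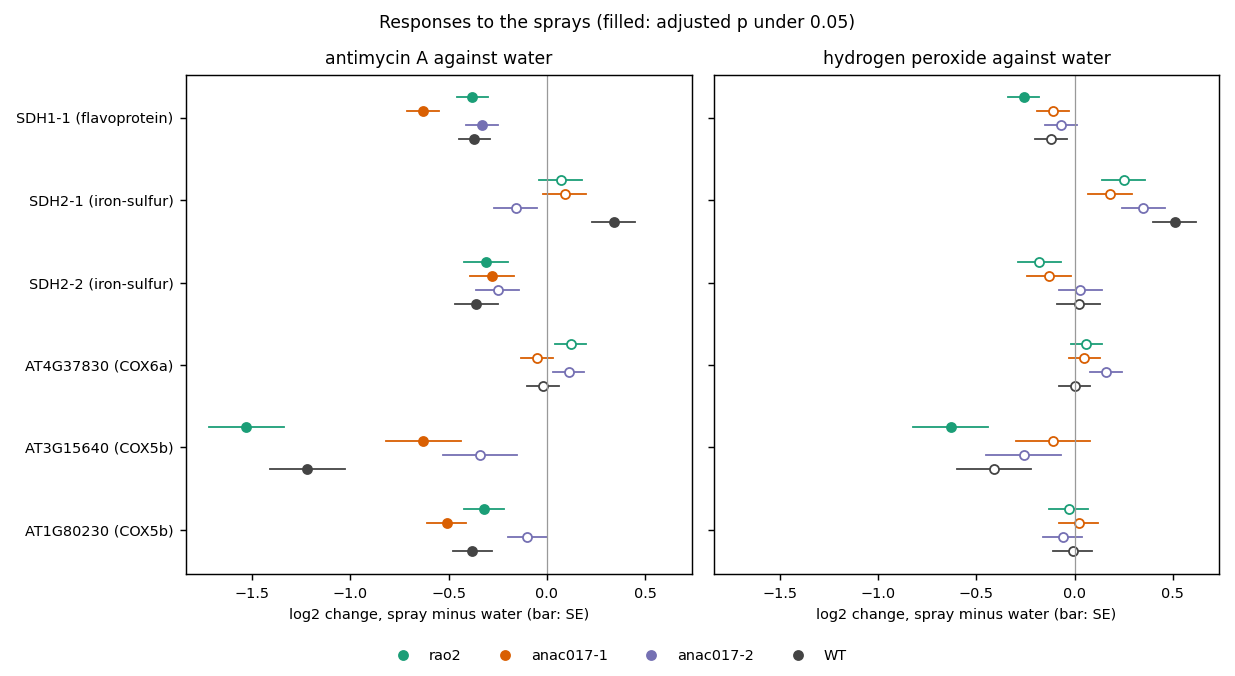
Log2 change (x axis) of each gene under antimycin A (left) and hydrogen peroxide (right) against water, by genotype (colour); bars are the SE of the fit, and filled points have an adjusted p under 0.05. AT3G15640 lies at -1.53 in rao2 and -1.22 in wild type under antimycin A, and SDH2-1 is the gene with filled points right of 0, at 0.34 and 0.51 in wild type.

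Because SDH2-1 with SDH2-2 and AT3G15640 with AT1G80230 encode the same subunit, the difference between the 2 probe sets of a pair was also taken within each array and compared between sprays. Only the change of this difference has a meaning, since probe sets differ in brightness, and cross-hybridisation between the copies was not tested. Under antimycin A the SDH2-1 minus SDH2-2 difference shifted upward by 0.38 on average, and by 0.38 in rao2, 0.37 in anac017-1, 0.09 in anac017-2 and 0.70 in wild type. The exact two-sided permutation test, with spray labels permuted within genotypes over 160000 arrangements, gave p = 0.000112, and 0.000224 adjusted over the 4 tests of this kind. Under hydrogen peroxide the shift was 0.39, with 0.44 in rao2, 0.31 in anac017-1, 0.32 in anac017-2 and 0.50 in wild type (exact p = 3.75e-05, adjusted 0.00015). The iron-sulfur genes thus changed unequally under both sprays, in the same direction in 4 of 4 genotypes.

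The pair of 5b-type genes changed unequally as well. Under antimycin A the AT3G15640 minus AT1G80230 difference shifted by -0.60 on average, and by -1.21 in rao2, -0.12 in anac017-1, -0.24 in anac017-2 and -0.84 in wild type (exact permutation p = 0.00114, adjusted 0.00114). Under hydrogen peroxide it shifted by -0.33, with -0.59 in rao2, -0.13 in anac017-1, -0.19 in anac017-2 and -0.40 in wild type (exact permutation p = 0.000262, adjusted 0.000349). Without anac017-2 the 4 shifts were 0.48 and 0.41 for the iron-sulfur pair and -0.72 and -0.38 for the 5b-type pair (exact permutation p = 5e-04, 0.00075, 0.00225 and 5e-04, over 8000 arrangements). For the 5b-type pair under antimycin A, the shifts of anac017-1 and anac017-2 were small and leaned on single arrays. Leaving out replicate 3 of antimycin A gave 0.24 in anac017-1 and -0.03 in anac017-2. Without any 1 array the shift of this pair ran from -1.36 to -1.10 in rao2 and from -0.89 to -0.78 in wild type. Under hydrogen peroxide the anac017-2 shift of this pair ran from -0.33 to -0.11 without replicate 1 or 2 of hydrogen peroxide. The anac017-2 shift of the iron-sulfur pair under antimycin A was 0.03 without replicate 1 of water. In anac017-1 that antimycin A shift ran from 0.27 to 0.48 without any 1 array. The hydrogen peroxide shifts of the iron-sulfur pair ran from 0.21 to 0.43 in anac017-1 and from 0.26 to 0.35 in anac017-2. The sizes in single genotypes were not tested against each other. Both comparisons of a pair share their water arrays, and the pairs were formed with the changes of these genes already known.

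**Figure D3:**
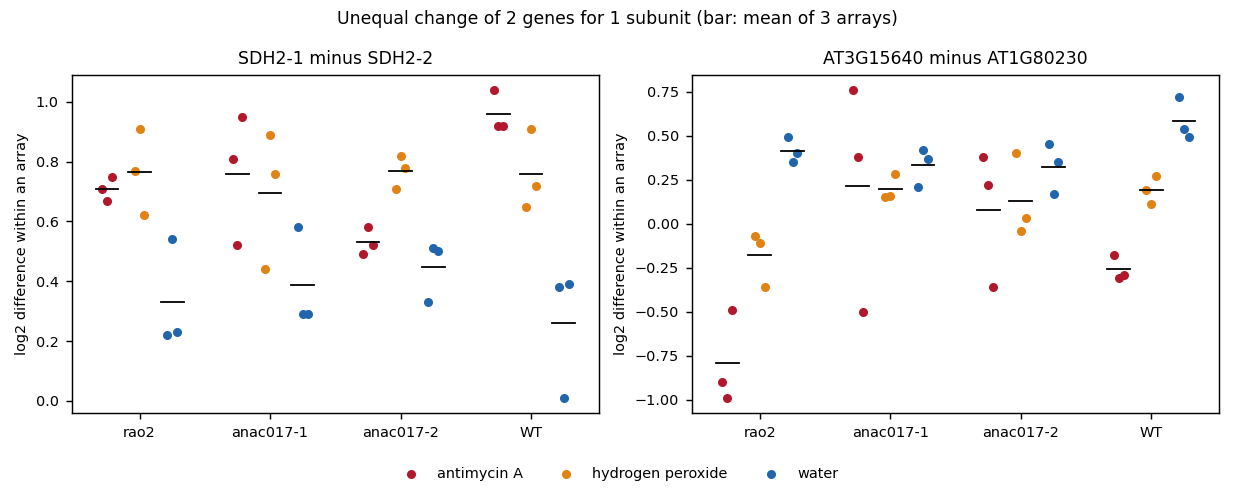
Log2 difference within an array (y axis) between the 2 genes of each pair, by genotype (x axis) and spray (colour); points are arrays and bars are means of 3. The spread is widest for the 5b-type pair in antimycin A-treated anac017-1, where the 3 arrays run from -0.50 to 0.76; in rao2 and wild type all antimycin A points of this pair lie below all water points.

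Hydrogen peroxide against water was called for 3 of 24 changes, beside 9.16% of all probe set changes, a share close to that of the members. SDH2-1 was the 1 gene of 6 called in wild type, where 14.8% of all probe sets were. There it read 10.26, 10.69 and 10.31 under hydrogen peroxide, against 9.91, 9.85 and 9.95 in water, without overlap. The rise was 0.51 ± 0.11, or 1.43-fold (limma adjusted p = 0.00266), and the call held when any single array was left out but was lost with the compared groups alone in the fit (adjusted p = 0.0636). In anac017-2 SDH2-1 read 10.01, 10.50 and 10.19 under hydrogen peroxide and 9.85, 9.92 and 9.87 in water. That change, 0.35 ± 0.11, was not called (adjusted p = 0.0513) but was called under 3 alternatives, with 0.46 without replicate 1 of hydrogen peroxide. In rao2 the arrays read 10.21, 10.22 and 10.00 against 9.94, 9.99 and 9.73, a change of 0.25 ± 0.11 (adjusted p = 0.163). In anac017-1 they read 9.81, 9.83 and 9.96 against 9.85, 9.64 and 9.57, a change of 0.18 ± 0.11 (adjusted p = 0.624). The hydrogen peroxide arrays lay above all water arrays in rao2, anac017-2 and wild type.

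In rao2 the genes called under hydrogen peroxide were SDH1-1 and AT3G15640, and both fell. AT3G15640 read 9.11, 9.13 and 8.78 under hydrogen peroxide, against 9.65, 9.65 and 9.59 in water, without overlap. The change was -0.63 ± 0.19 (limma adjusted p = 0.027), and it was lost without replicate 2 or 3 of hydrogen peroxide (-0.69 and -0.51) or replicate 1 or 2 of water (-0.62 each). For SDH1-1 the levels were 10.76 ± 0.19 and 11.02 ± 0.13, the groups overlapped, and the change of -0.26 ± 0.08 (limma adjusted p = 0.0409) was lost without any 1 of the same 4 arrays, with values from -0.30 to -0.16. AT3G15640 read 9.39, 9.56 and 9.65 under hydrogen peroxide in wild type, below its 3 water arrays, a change of -0.41 ± 0.19 that was not called (adjusted p = 0.146) except with the compared groups alone in the fit (adjusted p = 0.0416), where both rao2 calls were lost. It read 9.33, 9.39 and 9.60 in anac017-1 and 9.51, 9.45 and 9.22 in anac017-2, with changes of -0.11 ± 0.19 and -0.26 ± 0.19.

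SDH2-2, AT4G37830 and AT1G80230 were not called in any genotype under hydrogen peroxide. SDH2-2 averaged 9.38 ± 0.07 in rao2, 9.17 ± 0.21 in anac017-1, 9.46 ± 0.19 in anac017-2 and 9.66 ± 0.10 in wild type, and its changes lay between -0.18 and 0.03. AT1G80230 averaged 9.19 ± 0.05, 9.24 ± 0.07, 9.26 ± 0.20 and 9.35 ± 0.13 in the same order, with changes between -0.06 and 0.02. For AT4G37830 the changes lay between 0.00 and 0.16, and the highest of all its values, 12.62, was replicate 2 of hydrogen peroxide in anac017-2. The genes called numbered 2 of 6 in rao2, 0 in anac017-1, 0 in anac017-2 and 1 in wild type, beside 11.4%, 1.42%, 9.01% and 14.8% of all probe sets in limma. In anac017-1 none of the 6 and in anac017-2 SDH2-1 alone had an unadjusted p under 0.05. Summed guard cell lineage intensity under hydrogen peroxide was 103.8 to 145.8 in rao2, 69.62 to 83.56 in anac017-1, 87.58 to 108.6 in anac017-2 and 76.39 to 116.6 in wild type, below all water arrays except in rao2, and its part in the results was not tested. The sprays share their water arrays, so the antimycin A and hydrogen peroxide changes are not independent of each other.

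Set directly against hydrogen peroxide, antimycin A gave lower levels for 10 of 24 gene and genotype pairs and higher levels for none, beside 31% of all probe set changes called in either direction. Called were 2 of 6 genes in rao2, 3 in anac017-1, 1 in anac017-2 and 4 in wild type, beside 37.9%, 45%, 5.22% and 35.7% of all probe sets (24.2%, 28.2%, 3.04% and 21.6% as lower under antimycin A). AT3G15640 was lower, with differences of -0.90 ± 0.19 in rao2, -0.52 ± 0.19 in anac017-1 and -0.81 ± 0.19 in wild type (limma adjusted p = 0.000299, 0.0233 and 0.00102). In anac017-1 that call was lost without replicate 3 of antimycin A (-0.22) or replicate 3 of hydrogen peroxide (-0.44). AT1G80230 was lower, with a difference of -0.29 ± 0.10 in rao2, -0.53 ± 0.10 in anac017-1 and -0.36 ± 0.10 in wild type, and the rao2 call was lost without replicate 3 of antimycin A (-0.19) or 2 of hydrogen peroxide (-0.26). The genes of the 5b-type subunit thus held 6 of the 10 calls, and 9 of the 10 came from rao2, anac017-1 and wild type.

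Of the succinate dehydrogenase genes, SDH1-1 was lower under antimycin A than under hydrogen peroxide, with a difference of -0.52 ± 0.08 in anac017-1 and -0.25 ± 0.08 in wild type. The wild type call was lost without replicate 2 or 3 of antimycin A (-0.24 and -0.20) or 2 of hydrogen peroxide (-0.18). SDH2-2 was lower, with a difference of -0.38 ± 0.11 in wild type, a call lost without replicate 2 of hydrogen peroxide (-0.32). SDH2-1 was lower, with a difference of -0.51 ± 0.11 in anac017-2 (limma adjusted p = 0.00617), a call lost without replicate 2 of hydrogen peroxide (-0.38), and differed by -0.17 ± 0.11 in wild type, which was not called.

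In water, none of the 6 genes differed between a mutant and wild type at an adjusted p under 0.05 in limma. All 18 tests were uncalled, 3 had an unadjusted p under 0.05, and the shares of all probe sets called were 0.132% for rao2, 5.43% for anac017-1 and 0.506% for anac017-2 (2.02% over the 3). The 3 were SDH2-2 in anac017-1 (-0.34 ± 0.11, adjusted p = 0.0726), AT3G15640 in anac017-1 (-0.40 ± 0.19, adjusted p = 0.254) and SDH1-1 in anac017-2 (-0.20 ± 0.08, adjusted p = 0.496). AT3G15640 had all mutant arrays below all wild type arrays in each mutant, with values of -0.31 ± 0.19 in rao2 and -0.30 ± 0.19 in anac017-2. The uncalled tests do not show equal levels, since the 95% intervals of AT3G15640 reached -0.70 in rao2, -0.78 in anac017-1 and -0.68 in anac017-2. Of the other values, SDH2-1 in anac017-1 (-0.21 ± 0.11) and SDH2-2 in anac017-2 (-0.21 ± 0.11) were the largest.

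Under antimycin A, 7 of 18 differences between a mutant and wild type were called. They numbered 1 in rao2, 3 in anac017-1 and 3 in anac017-2, beside 6.66%, 18.6% and 38.9% of all probe sets (21.4% over the 3). SDH2-1 was lower than in wild type in anac017-1 (-0.47 ± 0.11, limma adjusted p = 0.00387) and in anac017-2 (-0.52 ± 0.11, limma adjusted p = 0.000429). All mutant arrays lay below all wild type arrays, also in rao2, where the difference of -0.28 ± 0.11 was not called (adjusted p = 0.149). SDH1-1 was lower in anac017-1, at 10.30 ± 0.08 against 10.73 ± 0.11 in wild type, by -0.43 ± 0.08 (limma adjusted p = 6e-04). These 3 calls held when any single array was left out, and that of SDH2-1 in anac017-1 was lost with the compared groups alone in the fit (adjusted p = 0.0658).

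AT3G15640 went opposite ways in 2 mutants under antimycin A. It was lower in rao2 than in wild type, with a difference of -0.62 ± 0.19 (limma adjusted p = 0.0417), with no overlap of the arrays. It was higher in anac017-2, with a difference of 0.58 ± 0.19 (limma adjusted p = 0.0134), although replicate 3 of anac017-2 (8.84) lay below replicate 1 of wild type (8.96). In anac017-1 the difference was 0.20 ± 0.19 and not called, and without replicate 3 it was 0.49 and called (adjusted p = 0.0433). The rao2 call was lost without replicate 1 or 3 of wild type (-0.50 and -0.67) or replicate 1, 2 or 3 of rao2 (-0.65, -0.54 and -0.67). The anac017-2 call was lost without replicate 2 or 3 of wild type (0.52 and 0.53) or replicate 1 or 2 of anac017-2 (0.40 and 0.53). Both calls were lost with the compared groups alone in the fit (limma adjusted p = 0.178 in rao2 and 0.138 in anac017-2). In rao2 the gene was also lower in water, without a call, and the difference in its antimycin A response was not called.

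AT1G80230 was lower in anac017-1 than in wild type, with a difference of -0.27 ± 0.10 (limma adjusted p = 0.0438) and higher in anac017-2 by 0.24 ± 0.10 (limma adjusted p = 0.0448), without overlap in either. The first call was lost without replicate 1 of wild type (-0.19) or replicate 1 or 2 of anac017-1 (-0.21 and -0.28). The second was lost without replicate 2 or 3 of wild type (0.20 each) or replicate 1, 2 or 3 of anac017-2 (0.21, 0.26 and 0.26). Both were lost with the compared groups alone in the fit (limma adjusted p = 0.209 in anac017-1 and 0.0892 in anac017-2). SDH2-2 was not called in any mutant, at -0.03 ± 0.11 in rao2, -0.26 ± 0.11 in anac017-1 and -0.10 ± 0.11 in anac017-2, and the anac017-1 value was called without replicate 2 of that group (-0.38). AT4G37830 differed by 0.12 ± 0.08, -0.05 ± 0.08 and 0.02 ± 0.08 in the same order, with no call.

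Under hydrogen peroxide the 2 calls were both in anac017-1, and both were for iron-sulfur subunit genes. SDH2-1 was lower than in wild type, with a difference of -0.55 ± 0.11 (limma adjusted p = 0.0022), at 9.81, 9.83 and 9.96 in anac017-1 against 10.26, 10.69 and 10.31 in wild type. SDH2-2 was lower, with a difference of -0.49 ± 0.11 (limma adjusted p = 0.00628), at 9.37, 8.94 and 9.20 in anac017-1 against 9.61, 9.78 and 9.59 in wild type. Neither pair of groups overlapped, and the SDH2-2 call was lost without replicate 2 of wild type (-0.43) or of anac017-1 (-0.38). Both were lost with the compared groups alone in the fit (adjusted p = 0.104 for SDH2-1 and 0.122 for SDH2-2). The shares of all probe sets called were 3.04% in rao2, 6.24% in anac017-1 and 0.189% in anac017-2 (3.16% over the 3). In rao2 none of the 6 genes was called in limma. The differences were -0.53 ± 0.19 for AT3G15640, -0.28 ± 0.11 for SDH2-2, -0.27 ± 0.11 for SDH2-1 and -0.22 ± 0.08 for SDH1-1. These 4 had unadjusted limma p-values of 0.00876, 0.0177, 0.0216 and 0.0135. The share of all probe sets with unadjusted p-values this low was not counted.

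The size of the antimycin A response itself was called as different from that of wild type in 2 of 18 tests, both in anac017-2. Over the 3 mutants 10.9% of all probe set tests were called, a share close to that of the 6 genes (11.1%). For SDH2-1 the response was -0.16 ± 0.11 in anac017-2 and 0.34 ± 0.11 in wild type, a difference of -0.50 ± 0.16 (limma adjusted p = 0.0177). For AT3G15640 it was -0.34 ± 0.19 in anac017-2 and -1.22 ± 0.19 in wild type, a difference of 0.88 ± 0.26 (limma adjusted p = 0.0122). Beside these 2 of 6 genes, 28.4% of all probe sets had a different response in anac017-2. Each call was lost without 1 array, replicate 2 of antimycin A in anac017-2 for SDH2-1 (-0.44, adjusted p = 0.055) and replicate 1 of that group for AT3G15640 (0.70, adjusted p = 0.0509).

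No response difference was called in rao2 or anac017-1, where 1.3% and 2.98% of all probe sets were called in limma. For SDH2-1 the differences were -0.27 ± 0.16 in rao2 and -0.25 ± 0.16 in anac017-1, and for AT3G15640 -0.31 ± 0.26 and 0.59 ± 0.26. The 95% interval for SDH2-1 in rao2 ran from -0.59 to 0.06. In anac017-1 the difference for AT3G15640 (adjusted p = 0.3) was 0.89 and called without replicate 3 of antimycin A (adjusted p = 0.0246). SDH1-1 had an unadjusted p of 0.0402 in anac017-1 (-0.26 ± 0.12). A SDH2-1 response different from that of wild type was thus called in anac017-2 alone, but the mutants were not tested against each other. The adjustment was made within each contrast, so the unadjusted p needed for a call also differed between mutants.

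For the hydrogen peroxide response no difference between a mutant and wild type was called in 18 limma tests, and SDH2-1 in anac017-1 (-0.34 ± 0.16, adjusted p = 0.499) alone had an unadjusted p under 0.05. The shares of all probe sets called were 0.0132% in rao2, 0.0264% in anac017-1 and 0.0352% in anac017-2 (0.0249% over the 3). SDH2-1 differed by -0.26 ± 0.16 in rao2 and -0.17 ± 0.16 in anac017-2.

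**Figure D4:**
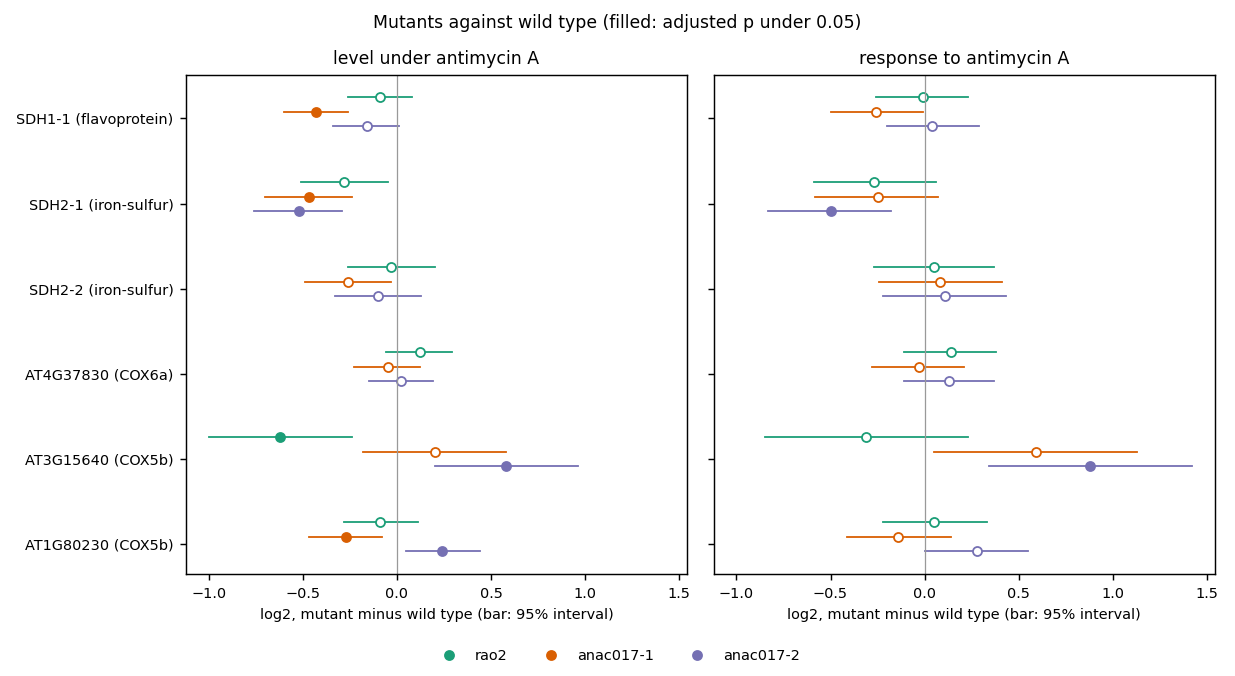
Log2 difference between each mutant (colour) and wild type (x axis), for the level under antimycin A (left) and for the antimycin A response (right); bars are 95% intervals, and filled points have an adjusted p under 0.05. SDH2-1 lies left of 0 in all 3 mutants in both panels, and AT3G15640 spreads from -0.62 in rao2 to 0.58 in anac017-2 in the left panel.

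Other genes of both complexes were taken from lists of loci, of which those with a probe set of their own were measured. For complex II this was 1 further gene of 10, SDH1-2, the second flavoprotein gene. It was not above background on most arrays, with group means under antimycin A of 2.44 to 2.48, and was called in none of the 27 contrasts. For complex IV, 5 further subunit genes of 11 were measured. Under antimycin A, 1 of them rose and 1 fell in rao2, 1 rose and 2 fell in anac017-1, 2 rose and none fell in anac017-2, and 2 rose and 1 fell in wild type, with medians of 0.02, -0.19, 0.08 and -0.09. Calls thus went both ways in rao2, anac017-1 and wild type. Of all probe sets, 42.2% were called in either direction in rao2, 45.3% in anac017-1, 15.3% in anac017-2 and 44% in wild type.

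AT1G52710, a gene similar to the 5b-type genes, rose under antimycin A in all 4 genotypes. Its change under antimycin A was 1.76 ± 0.33 in rao2, 1.13 ± 0.33 in anac017-1, 1.96 ± 0.33 in anac017-2 and 1.52 ± 0.33 in wild type (limma adjusted p = 9.51e-05, 0.00663, 0.000296 and 0.000475). It also rose by 1.05 ± 0.33 under hydrogen peroxide in wild type (adjusted p = 0.0341) and was higher in water-treated anac017-1 than in wild type, with a difference of 1.72 ± 0.33 (adjusted p = 0.00179). AT5G61310, for a 5c-type subunit, fell in rao2 (-1.11 ± 0.18), anac017-1 (-1.80 ± 0.18) and wild type (-1.0 ± 0.18). In anac017-2 it changed by -0.09 ± 0.18, and its response there differed from that of wild type by 0.91 ± 0.26 (limma adjusted p = 0.00855). AT5G57815, for a 6b-type subunit, rose in anac017-2 (0.34 ± 0.11) and wild type (0.31 ± 0.11). Of the other 5c-type genes, AT3G62400 fell in anac017-1 (-0.19 ± 0.06) and AT2G47380 was not called, at -0.19 to 0.08.

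Of 3 measured assembly factor genes of cytochrome c oxidase, 2 rose under antimycin A in rao2, 1 in anac017-1, none in anac017-2 and 2 in wild type. In wild type 17.2% of all probe sets were called as rising. AT1G02410, the gene for COX11, which takes part in copper insertion, rose by 1.37 ± 0.12 in rao2, 1.57 ± 0.12 in anac017-1 and 1.46 ± 0.12 in wild type. In anac017-2 it changed by 0.03 ± 0.12, and that response differed from wild type by -1.43 ± 0.17 (limma adjusted p = 6.73e-07). AT1G53030, for the copper chaperone COX17, rose by 0.44 ± 0.12 in rao2 and 0.42 ± 0.12 in wild type, and its values in anac017-1 (0.28 ± 0.12) and anac017-2 (0.26 ± 0.12) were not called. The third measured gene of the 11 listed, AT1G48510, was not above background on any array.

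The other complexes of the chain are given beside the 6 genes by their counts under antimycin A. Of all probe sets, 25.8% were called as falling in rao2, 27.7% in anac017-1, 8.39% in anac017-2 and 26.7% in wild type. Of 16 measured complex I genes, 6 fell in rao2, 11 in anac017-1, 0 in anac017-2 and 7 in wild type. Among the last were AT5G52840 (-0.53 ± 0.08) and FRO1 (-0.54 ± 0.13). OEP16-3 of this list rose in anac017-2 (0.26 ± 0.09). Of 13 measured genes of complex III and cytochrome c, 6, 9, 2 and 6 fell in the same order and 1 rose in each genotype. The risen gene in wild type was CYTC-2, a gene for cytochrome c (0.40 ± 0.11). CYTC-2 also rose in rao2 (0.61 ± 0.11) and anac017-1 (0.45 ± 0.11) and fell in anac017-2 (-0.40 ± 0.11). CYTC-1, the other measured cytochrome c gene, was not called in wild type (-0.07 ± 0.06) or anac017-2 (-0.16 ± 0.06). AT1G51980 (-0.81 ± 0.07), for a core subunit of complex III that is also part of the processing peptidase, and AT5G40810 (-0.70 ± 0.06), for cytochrome c1, fell in wild type. Of 5 measured ATP synthase genes 4 fell in rao2, 5 in anac017-1, 0 in anac017-2 and 5 in wild type, such as AT2G19680 (-0.82 ± 0.09) and AT5G47030 (-0.56 ± 0.10) in wild type. The medians in wild type were -0.15 for complex I, -0.18 for complex III with cytochrome c and -0.49 for the ATP synthase, beside -0.02 for all probe sets.

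Of the tricarboxylic acid cycle, which supplies the substrate of succinate dehydrogenase, 12 genes were measured of 26 listed. Under antimycin A 7 of these genes fell and 1 rose in rao2, and 6 fell and 1 rose in anac017-1. In anac017-2 1 fell and none rose, and in wild type 5 fell and 2 rose. Of all probe sets, 25.8%, 27.7%, 8.39% and 26.7% were called as falling in the same order. The succinyl-CoA ligase genes AT5G23250 and AT2G20420, whose enzyme makes succinate, fell in wild type (-0.66 ± 0.07 and -0.57 ± 0.11). Both also fell in rao2 (-0.79 ± 0.07 and -0.56 ± 0.11) and anac017-1 (-1.12 ± 0.07 and -0.70 ± 0.11). AT5G08300, another gene of this enzyme, was not called in wild type (-0.22 ± 0.11, limma adjusted p = 0.113). AT4G26910 and AT3G55410, for 2-oxoglutarate dehydrogenase components, were the risen genes in wild type (0.63 ± 0.15 and 0.17 ± 0.07). Other genes for these components did not rise: in wild type AT5G55070 fell (-0.36 ± 0.09) and AT5G65750 was not called (0.11 ± 0.21). Alternative respiration had 5 genes measured of 12 listed, among them NDB2 for an alternative NADH dehydrogenase. NDB2 rose by 0.93 ± 0.27 in rao2, 0.86 ± 0.27 in anac017-1 and 2.65 ± 0.27 in wild type, and its value in anac017-2 (0.60 ± 0.27) was not called. In wild type NDB1 (-0.78 ± 0.18) and NDC1 (-0.18 ± 0.06) fell. NDB4 was called as risen in wild type, with a measured mean of 6.42 under antimycin A against 1.81 in water. On the 3 water arrays of wild type it was not above background. NDB4 was called as risen in anac017-2 too (1.04 ± 0.28, limma adjusted p = 0.0112).

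**Figure D5:**
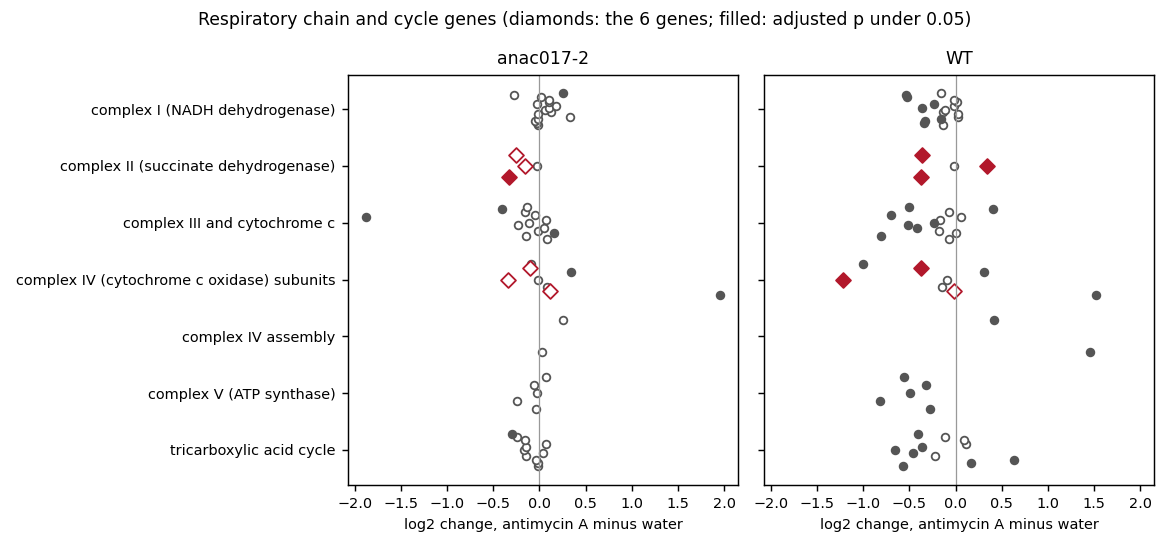
Log2 change (x axis) under antimycin A against water of measured genes by complex (rows), in anac017-2 (left) and wild type (right); diamonds are the 6 genes, circles the other listed genes, and filled symbols have an adjusted p under 0.05. In wild type 5 of 6 diamonds are filled, and in anac017-2 that of SDH1-1 alone (-0.33).

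The likeness of the 6 genes to each other over the 12 groups was uneven. The group means of SDH1-1 correlated with those of SDH2-2 at r = 0.864 and of AT1G80230 at r = 0.825, and AT3G15640 with AT1G80230 at r = 0.79 (Pearson, 12 group means each). SDH2-1 correlated with SDH2-2 at r = 0.497 and with SDH1-1 at r = 0.242, and AT4G37830 with AT3G15640 at r = -0.425. These are descriptions over groups that share arrays and sprays, without a test.

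Among 5970 named probe sets above the median level, the gene most like SDH2-1 over the 12 group means was AT5G44080 (r = 0.973), followed by AT5G51740 (0.931) and AT3G29075 (0.928). For SDH1-1 the nearest were AT4G12650, AT5G08300 and AT2G01410 (0.946 each), and for SDH2-2 ATSLY1 (0.956), AT4G24330 (0.942) and AT4G38930 (0.932). AT3G15640 was nearest to AT1G27900 (0.964), AT3G08620 (0.952) and AT2G31740 (0.946). AT1G80230 was nearest to AT4G34450 (0.985), AT1G53460 (0.984) and AT5G08060 (0.982). AT4G37830 had the weakest nearest matches of the 6, AT5G07960 (0.874), AT4G14020 (0.872) and NDP1 (0.851). The probe sets of the 6 genes themselves were left out of this search.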

How the data were processed

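RNA of 36 samples had been labelled with biotin and hybridised to single-colour arrays, per the labels' protocols. The authors deposited 1 linear-scale intensity per probe set and array, already normalized. The submitters' processing notes name RMA and GCRMA, with no version, and leave unstated which method gave these numbers. The values run from 2.096 to 54591. Such normalization assumes that most transcripts do not change, so each change is relative to the array as a whole. No detection calls were used.

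Log2 intensities were analysed for 22746 of 22810 probe sets, without 64 controls. The gene table lists 1 gene for 13513 of them, several for 503 and has no entry for 8730. A model with 1 mean for each of 12 groups was fitted by limma 3.58.1 (R 4.3.3) to the 36 arrays (24 residual and 1.28 prior degrees of freedom), with 27 contrasts. A change was called where p, adjusted by Benjamini-Hochberg across all probe sets of the contrast, was under 0.05. Standard errors use a variance shared by the 12 groups. Values at or below an array's lower quartile (2.45 to 2.56, log2) count as not above background. Exact permutation tests were two-sided, permuted sprays within genotypes and cannot go below p = 1.25e-05. The fit was tested on simulated data. Figures were drawn with matplotlib.

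The members, gene lists and marker lists were chosen with earlier results of these data known. Genes named are the 6 members, every measured gene of the complex II, complex IV and assembly lists, up to 2 called risen and 2 called fallen genes of each other list in wild type under antimycin A, and for each member the 3 genes nearest by Pearson r over group means, among probe sets above the median level. Some further measured genes of the same enzyme, protein or list are given where their calls differed. Roles of genes listed by locus code come from general knowledge. Alternatives were quantile normalization, median centring, log2(value + 16), a floor at the lower quartile, a filter on dim probe sets, fits to the compared groups alone, array weights, a trended robust prior, a replicate block, adjusted p under 0.01 and leaving out each array. Counts without anac017-2 were added after seeing the data.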

Additional observations from a re-analysis of the deposited data

Results flagged for a closer look

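The antimycin A response of 2 of the 6 genes differed between anac017-2 and wild type by a test of the difference itself. That share is close to the share of all probe sets, given below. For SDH2-1 the difference was -0.50 ± 0.16 (log2, SE; limma adjusted p = 0.0177), with a response of -0.16 in anac017-2 and 0.34 in wild type. For AT3G15640 it was 0.88 ± 0.26 (limma adjusted p = 0.0122), with a response of -0.34 in anac017-2 and -1.22 in wild type. The antimycin A arrays of anac017-2, which both values rest on, stood apart from the other antimycin A arrays on the first principal component, and 28.4% of all probe sets had a different response in that mutant. The part of this in the values for SDH2-1 and AT3G15640 was not tested. Groups of 3 arrays are too small to look for single outlying arrays.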

How the results depend on the processing

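Of 162 member changes, 38 were called. Over the alternatives these gave 620 values, of which 527 kept sign and call, 93 lost the call and none turned sign, and 13 of the 38 kept their call throughout. Of 2188 values of uncalled changes, 20 were called and 88 turned sign while uncalled. With the compared groups alone in the fit, calls numbered 1 in place of 3 for hydrogen peroxide against water, 5 in place of 10 for antimycin A against hydrogen peroxide, 1 in place of 0 for mutants in water, 2 in place of 7 for mutants under antimycin A and 0 in place of 2 under hydrogen peroxide. For hydrogen peroxide against water all 3 calls were lost and the 1 call was another one, AT3G15640 in wild type (-0.41, adjusted p = 0.0416). This fit has fewer arrays behind each variance. At an adjusted p under 0.01 they numbered 1 for hydrogen peroxide against water, 3 for mutants under antimycin A and 0 for differences in the antimycin A response. With array weights they numbered 2 for mutants in water, 5 under hydrogen peroxide and 4 for the antimycin A response, and with median centring 1 for mutants in water; the cause was not tested.

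Leaving out each array in turn gave 12 to 14 calls for antimycin A against water, 1 to 4 for hydrogen peroxide against water, 8 to 11 for antimycin A against hydrogen peroxide, 0 for mutants in water, 4 to 8 under antimycin A, 1 to 2 under hydrogen peroxide, 1 to 3 for the antimycin A response and 0 for the hydrogen peroxide response. The shifts within arrays ranged from 0.35 to 0.41 and 0.36 to 0.42 for SDH2-1 minus SDH2-2 under antimycin A and hydrogen peroxide, and from -0.67 to -0.51 and -0.36 to -0.31 for AT3G15640 minus AT1G80230.

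The replicate numbers did not meet the rule for pairing, which asks for every same-numbered pair to correlate over 0.1: 56 of 198 did (lowest -0.334). Deviations correlated at 0.039 on average for the same number and -0.0191 for different numbers, and 27 of 36 arrays correlated best with their own number, where 12 would if numbers carried nothing. This is a hint from the data, not from the design, that same-numbered arrays share something. With the replicate number as a block, 13 calls in place of 14 were made for antimycin A against water, without SDH2-2 in anac017-1 (-0.28, adjusted p = 0.05), and no other call of the 6 genes changed.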
